A study of Mus musculus with 14 samples.

Results

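C2C12 cells at day 2 of differentiation were compared between 2 media that carried the same cocktail and differed in serum. The comparison took the 2 libraries of medium DM3 and the 2 libraries of medium DM2 at that day, 4 of the 14 libraries of the series, and the libraries were assigned to the groups by their labels. C2C12 is an established mouse myoblast line. It was kept in DMEM with 4.5 g/L glucose and 20% fetal calf serum (FCS), and then moved to a differentiation medium that was changed every other day. DM3 was DMEM with 2% horse serum (HS), and DM2 was DMEM with 10% FCS. To each was added a cocktail of 2 µM rosiglitazone (an agonist of the fat-cell receptor PPAR-gamma), 0.5 µM dexamethasone (a glucocorticoid), 0.5 mM IBMX (an inhibitor of phosphodiesterases, which raises cAMP) and insulin at 1 µg/ml. The cocktail was thus present in both groups, and the kind and the amount of serum changed together, so their parts cannot be told apart. Levels at day 0 (20% FCS, no cocktail), in DM1 at day 2 (2% HS, no cocktail) and in DM3 and DM2 at day 7 are given beside the day 2 values where they help. All data come from a single line, and the labels number 2 libraries per group without saying that they came from separate cultures, and the p-values therefore reflect variation among libraries, which may be technical only.

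Myoblasts leave the cell cycle and fuse into multinucleated myotubes when serum is lowered. Myogenic bHLH factors (MyoD, Myf5, myogenin) pair with E proteins and bind E-box sequences in muscle promoters, while Id proteins, which have no DNA-binding region, hold E proteins in inactive pairs and are induced by serum and BMP signals. Embryonic myosin heavy chain, encoded by Myh3, is among the early sarcomere proteins of a new myotube.

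Read totals were 21907617 and 27564493 expected counts in DM3 replicates 1 and 2, and 23701870 and 24700182 in DM2. DM3 replicate 2 stood apart from the other 13 libraries: 17750 genes had at least 1 count, against 19640 to 21111 elsewhere, 4.18% of its gene values were not whole, against 9.66% to 10.5%, and 0.584% of its counts lay in processed pseudogenes, against 2.34% in DM3 replicate 1 and 2.99% and 2.47% in DM2. Among 15973 genes tested, 669 differed at least 2-fold between the DM3 replicates and 39 between the DM2 replicates, and 410 of the 669 were processed pseudogenes. Rps2, a ribosomal protein gene with many pseudogene copies, stood at 4.58 CPM and 479 CPM in the DM3 libraries and at 6.45 and 4.73 CPM in DM2, and its difference was not called (adjusted p = 0.229, edgeR's quasi-likelihood F test, adjusted by Benjamini and Hochberg's method, as for every adjusted p given). CPM are counts per 1e+06 of the TMM-scaled library. Of the 669 genes, 1 was called in DM3 against DM2. Each day 2 count over a gene list below is given with and without DM3 replicate 2, or the list's median log2 fold change is given both ways.

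At day 2, 2602 of the 15973 genes (16.3%) differed between DM3 and DM2 at an adjusted p under 0.05, 1594 (9.98%) higher and 1008 (6.31%) lower in DM3. Scaled by library totals alone, the calls split into 1345 higher and 1302 lower. At least 2-fold, 348 genes were higher and 219 lower. The libraries of the groups did not overlap in any of the 2602 genes, and did not overlap in 54.7% of all genes tested. Calls fell to 1188 (772 higher, 416 lower) without DM3 replicate 2 and to 1124 (733 and 391) without DM2 replicate 1, and rose to 4130 (1860 and 2270) without DM3 replicate 1. With each of the 4 libraries left out in turn, 906 genes (636 higher, 270 lower) were called every time. In bulk RNA, fewer cells of a type and less RNA per cell cannot be told apart. Unless a library is named beside it, each gene given below with a fold was called the same way in all 4 of these fits.

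**Figure D1:**
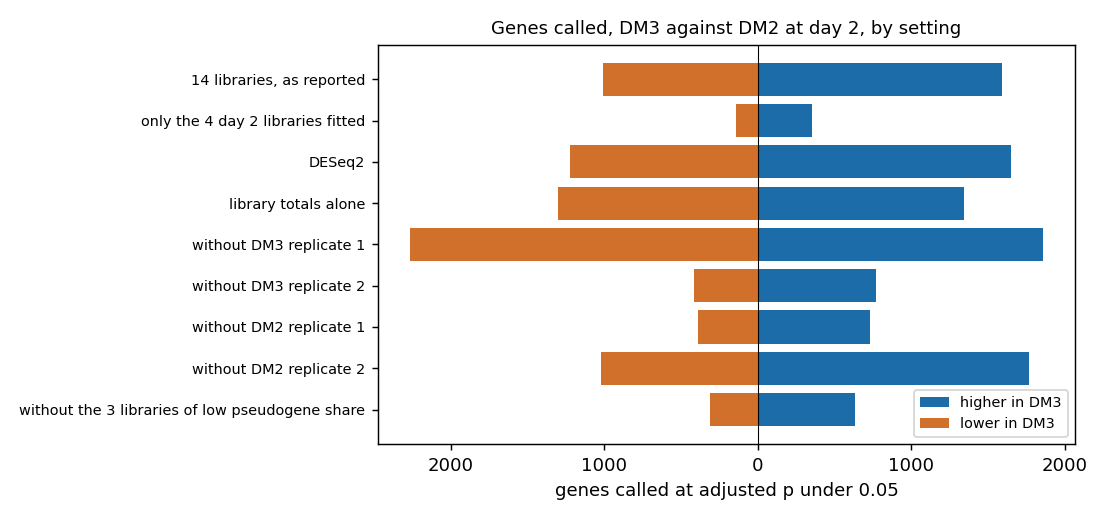
Number of genes called higher (blue, to the right) and lower (orange, to the left) in DM3 than in DM2 at day 2, for the 14-library fit as reported and 8 alternatives. The bars run from 353 higher and 141 lower with only the 4 day 2 libraries fitted to 1860 higher and 2270 lower without DM3 replicate 1.

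**Figure D2:**
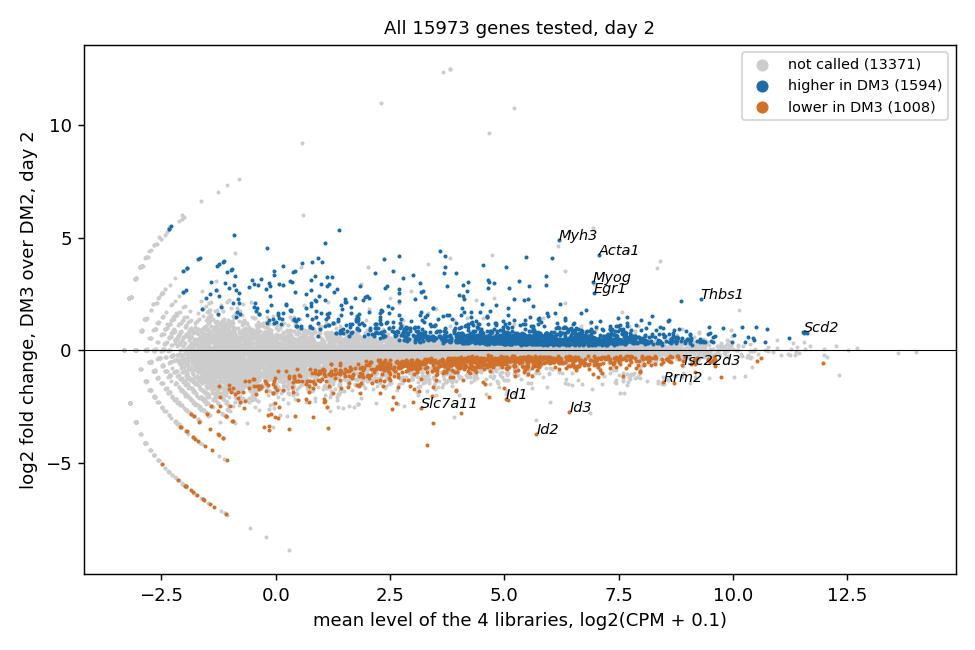
Log2 fold change of DM3 over DM2 (vertical axis) against the mean level of the 4 day 2 libraries, log2(CPM + 0.1) (horizontal axis), for the 15973 genes tested; blue points are the 1594 genes higher and orange points the 1008 lower in DM3, grey points were not called. Myh3 and Acta1 lie among the highest called genes of their level and Id2 and Id3 among the lowest, and the grey points above 5 at high level were seen mainly in DM3 replicate 2.

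The Id genes were lower in DM3. Id2 (chr12:25093799-25097140 of GRCm38, minus strand) stood at 8.63 and 6.34 CPM in the DM3 libraries and at 102 and 91.3 CPM in DM2. DM3 was 12.9-fold lower (log2 fold change -3.69, SE 0.238, adjusted p = 6.61e-06), and the groups lay far outside each other's spread. Id3 (chr4:136143497-136145755, plus strand) stood at 21.4 and 23.2 CPM against 168 and 131 CPM, 6.71-fold lower in DM3 (log2 fold change -2.75, SE 0.234, adjusted p = 5.42e-05). Id1 (chr2:152736251-152737410, plus strand) stood at 9.51 and 14.4 CPM against 61.1 and 46 CPM, 4.47-fold lower (log2 fold change -2.16, SE 0.232, adjusted p = 0.000161). All 3 were thus well separated, and the fourth member, Id4, was too low to be tested. In growing cells at day 0 the means were 37.8 CPM for Id1, 55.6 for Id2 and 92.5 for Id3, below the DM2 day 2 level and above the DM3 level of each gene. In DM1, with 2% HS and no cocktail, the means were 8.41, 17.7 and 17 CPM.

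Among the other inhibitory HLH factors, the Notch targets and transcriptional repressors Hes1 and Heyl went the other way. Heyl stood at 26.6 and 29.4 CPM in DM3 and at 2.16 and 3.05 CPM in DM2, 10.7-fold higher (adjusted p = 0.000221), and Hes1 was 2.76-fold higher (adjusted p = 7.76e-05). Of the 11 tested members of the list of Id and other inhibitory HLH factors, 4 were higher and 3 lower, and the 3 lower were the Id genes. Without DM3 replicate 2 the counts were 3 and 3. Of the 3 E proteins, the partners that Id proteins bind, 1 was called, with or without DM3 replicate 2: Tcf12 was 1.5-fold higher (258 and 268 CPM against 162 and 190, adjusted p = 0.00131), while Tcf3 (90.3 and 107 against 109 and 99.6 CPM, adjusted p = 0.604) and Tcf4 (181 and 122 against 135 and 141 CPM, adjusted p = 0.586) overlapped between the groups.

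**Figure D3:**
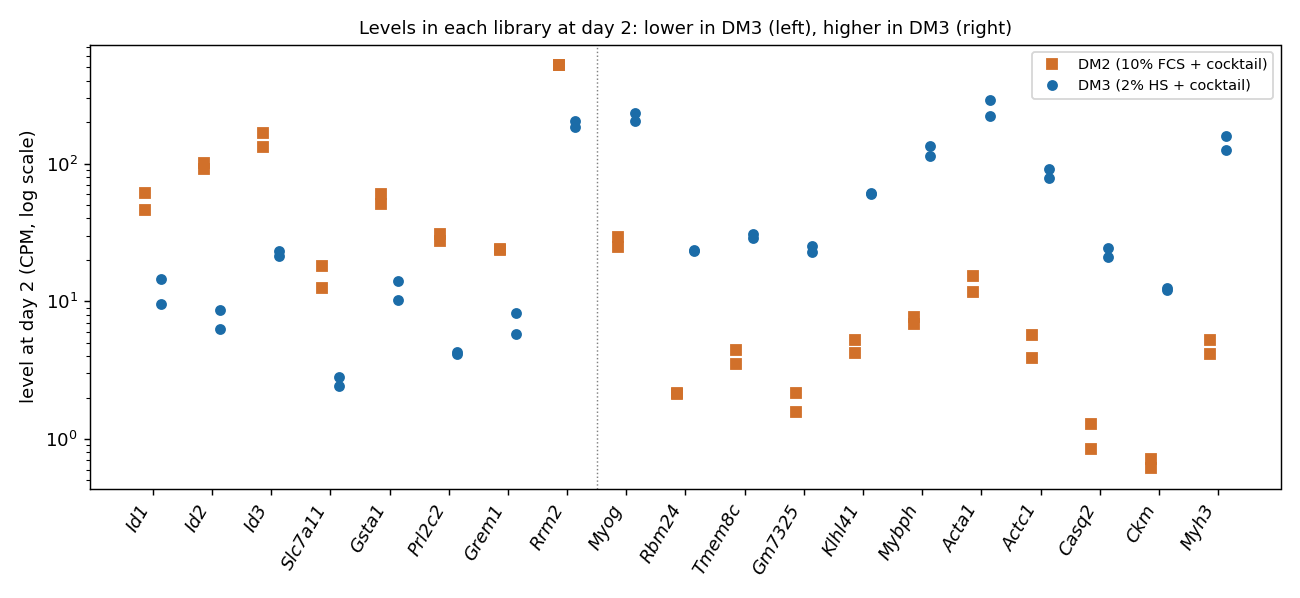
Level in CPM (log scale) of 19 genes in each of the 4 day 2 libraries, orange squares for the 2 DM2 libraries and blue circles for the 2 DM3 libraries, with the genes lower in DM3 left of the dotted line and those higher in DM3 right of it. In each of the 19 genes the 2 DM3 libraries lie apart from the 2 DM2 libraries. The nearest DM3 and DM2 libraries stand at 8.63 against 91.3 CPM for Id2 and 126 against 5.25 CPM for Myh3. Other gaps are smaller, such as 203 against 518 CPM for Rrm2.

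Of the myogenic bHLH factors, 1 rose and 2 fell in DM3. Myog, which encodes myogenin and marks commitment to differentiation (chr1:134289989-134292548, plus strand), stood at 204 and 231 CPM in DM3 and at 29.2 and 24.7 CPM in DM2. It was 8.08-fold higher in DM3 (log2 fold change 3.01, SE 0.145, adjusted p = 9.81e-08). Its level was 1.81 CPM at day 0 and 43.5 CPM in DM1 at day 2 (means of 2), so DM3 held the highest level of the 4 groups sampled by then. Myod1, the determination factor, was lower in DM3 (59 and 73.1 CPM against 116 and 102, 1.64-fold, adjusted p = 0.0132), and this call was lost without DM2 replicate 1 (adjusted p = 0.127). Myf5, its close relative, was 1.39-fold lower (215 and 200 against 301 and 277 CPM, adjusted p = 0.00553), again not called without DM2 replicate 1 (adjusted p = 0.0579). Myf6, the late factor, stood at 4.27 and 3.26 against 6.41 and 5.27 CPM and was not called (adjusted p = 0.142).

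Of 18 tested myogenic regulators, 8 were higher and 2 lower, with or without DM3 replicate 2, and leaving out DM2 replicate 1 the counts were 9 and 0. Rbm24, an RNA-binding protein that stabilises the Myog transcript, stood at 23 and 23.6 CPM against 2.16 and 2.14 CPM, 10.8-fold higher (adjusted p = 2.74e-08). Mef2a, Mef2c and Mef2d, MADS-box factors that act with the bHLH factors, rose by 1.54-fold, 1.56-fold and 1.72-fold (adjusted p = 0.00126, 0.00327 and 0.000439).

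The promoter windows of Myog and Acta1 are shown because these genes rose together with the sarcomere genes and because E-boxes are the sites that myogenic factors and E proteins bind. Each is the 250 bases before the RefSeq transcription start (GRCm38.p6), read 5′ to 3′ on the gene's strand, with capitals on matches to the E-box CANNTG and, in Acta1, on the CArG box, the sequence that serum response factor binds. The Myog window is chr1:134289754-134290003 (plus strand) and the Acta1 window is chr8:123894776-123895025 (minus strand). Gencode starts Myog earlier than RefSeq, and the last 15 bases of the Myog window, with the second E-box, lie in its 5′ untranslated region by that annotation. The Acta1 window lies outside the gene in both.
Myog: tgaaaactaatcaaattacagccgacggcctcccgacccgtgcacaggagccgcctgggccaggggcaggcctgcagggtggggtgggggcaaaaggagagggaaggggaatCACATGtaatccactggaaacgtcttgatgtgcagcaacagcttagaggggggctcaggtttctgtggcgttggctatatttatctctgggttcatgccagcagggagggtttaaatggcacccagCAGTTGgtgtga
Acta1: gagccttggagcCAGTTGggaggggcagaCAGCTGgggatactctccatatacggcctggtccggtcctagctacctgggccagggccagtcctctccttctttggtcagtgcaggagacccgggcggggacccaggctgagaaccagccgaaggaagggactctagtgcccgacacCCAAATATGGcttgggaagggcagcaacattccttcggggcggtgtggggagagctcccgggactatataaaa
Counting back from the start, with -1 the base before it, the Myog matches begin at -138 (CACATG) and -12 (CAGTTG), and those of Acta1 at -238 (CAGTTG) and -221 (CAGCTG), with the CArG box at -73. The pattern CANNTG is the same on either strand, although the letters of a single match need not be. An E-box was present in 66% of 27025 promoter windows of this length, in 16 of 19 windows of thick filament genes (84.2%) and in 12 of 14 windows of thin filament genes (85.7%). In other groups the share was near or below that of all windows: 69.6% for genes at least 2-fold higher in DM3, 64.2% for those at least 2-fold lower, 6 of 10 (60%) for the calcium store list, 7 of 13 (53.8%) for the myogenic regulators, 13 of 25 (52%) for DNA replication and 8 of 18 (44.4%) for the amino acid stress list. A CArG box was present in 1.4% of all windows, in 3 of the 19 (15.8%) and in 2 of the 14 (14.3%). A match is a description of the letters in the window.

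Sarcomere genes rose together. Of 18 tested thin filament genes 16 (88.9%) were higher and 0 lower (14 and 0 leaving out DM3 replicate 2), with a median log2 fold change of 2.16, against -0.0243 over all genes tested. Of 21 tested thick filament genes 14 were higher and 0 lower (12 and 0), with a median of 2.34. Scaled by library totals, the counts were again 16 and 14. Skeletal alpha-actin, Acta1 (chr8:123891769-123894751, minus strand), stood at 221 and 288 CPM in DM3 and at 15.3 and 11.6 CPM in DM2, 18.9-fold higher (log2 fold change 4.24, SE 0.184, adjusted p = 8.85e-08). Cardiac alpha-actin, Actc1, which embryonic muscle also makes, stood at 78.7 and 90.5 against 5.69 and 3.89 CPM, 17.7-fold higher (adjusted p = 0.00118). In both actin genes the DM3 libraries lay far above the DM2 libraries. The troponin genes Tnnt2 and Tnnc2, parts of the calcium switch on the thin filament, were 9.92-fold and 10.7-fold higher in DM3 than in DM2 (adjusted p = 8.85e-08 and 0.000221). They differed in their starting level: Tnnt2 stood at 117 CPM at day 0, near its 109 and 110 CPM in DM3 and far above its 11.7 and 10.3 CPM in DM2, whereas Tnnc2 stood at 0.26 CPM at day 0, 8.41 and 7.63 CPM in DM3 and 1.04 and 0.458 CPM in DM2.

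Myh3 (chr11:67078300-67102291, plus strand) stood at 126 and 157 CPM in DM3 and at 5.25 and 4.16 CPM in DM2. It was 30.1-fold higher in DM3 (log2 fold change 4.91, SE 0.209, adjusted p = 9.28e-08), the widest difference among called genes of at least 10 CPM in the higher group, symbols of Gm and a number left out. Its level at day 0 was 0.57 CPM and in DM1 at day 2 its 2 libraries stood at 65.5 and 55.1 CPM. The other sarcomeric heavy chains were nearly silent: the adult fast genes Myh1, Myh2 and Myh4 and the perinatal Myh8 reached at most 0.0881 CPM in any of the 4 libraries, under the floor of 3 counts (0.107 to 0.132 CPM), and Myh6 at most 0.176 CPM. Slow myosin Myh7 stood at 0.308 and 0.68 CPM in DM3 and at 0 and 0.115 CPM in DM2 (adjusted p = 0.0406, not called without DM3 replicate 2 or DM2 replicate 1), too few counts for a fold. Myh7b stood at 2.07 and 2.61 against 0.441 and 0.84 CPM, 3.63-fold higher (adjusted p = 0.00866), and was not called without DM2 replicate 1 (adjusted p = 0.0947). Non-sarcomeric myosins were not called: Myh9 had an adjusted p of 0.839 and overlapping libraries, Myh10 an adjusted p of 0.129, Myh14 of 0.167 and smooth muscle Myh11 of 0.868. Mybph, a myosin-binding protein (114 and 134 against 7.69 and 6.83 CPM), rose by 17-fold, the embryonic light chain Myl4 by 11.5-fold, and the M-band gene Myom3 by 9.1-fold.

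Other parts of the contractile apparatus rose as well. In the list of the calcium store and excitation-contraction coupling, 12 of 18 tested genes were higher and 0 lower (10 and 0 leaving out DM3 replicate 2). Casq2, a calcium buffer of the sarcoplasmic reticulum, stood at 21 and 24.5 CPM against 1.28 and 0.84 CPM, 21.4-fold higher (adjusted p = 6.89e-06). Cacna1s, the voltage sensor, was 11.1-fold higher from 0.2 and 0.191 CPM in DM2, Srl 6.9-fold and Hrc 5.23-fold. In the Z-disc and stretch list 12 of 20 were higher and 1 lower (9 and 2 leaving out DM3 replicate 2), among them Myoz2 (4.31-fold), Xirp1 (3.13-fold) and Pdlim3 (2.46-fold). The lower member was Cryab, a small heat shock protein (125 and 141 against 216 and 181 CPM, adjusted p = 0.0141), which was not called without DM3 replicate 1 or DM2 replicate 1. Acetylcholine receptor and junction genes were higher in 6 of 11 and lower in 0 (5 and 0), with the fetal gamma subunit Chrng 3.25-fold higher, Dok7 2.93-fold and Chrnd 2.56-fold. Muscle energy enzymes were higher in 6 of 11 and lower in 0 (4 and 0): muscle creatine kinase, Ckm, stood at 12 and 12.4 CPM against 0.721 and 0.611, 18.2-fold higher (adjusted p = 4.48e-08), myoglobin, Mb, was 9.86-fold higher and muscle glycogen phosphorylase, Pygm, 4.62-fold. All of these genes were apart between the groups. The folds of Mb (3.26 and 3.01 against 0.321 and 0.305 CPM) and Myoz2 (2.38 and 2.86 against 0.641 and 0.573 CPM) rest on few counts in DM2. These were 16 for Mb and 31 for Myoz2 over both DM2 libraries, and 10 for Cacna1s, so the sizes are rough.

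Fusion genes were higher in 13 of 23 tested and lower in 0 (10 and 0 leaving out DM3 replicate 2). Myomixer, listed as Gm7325, a small membrane protein that opens the fusion pore, stood at 22.7 and 25.2 CPM against 2.16 and 1.57 CPM, 12.9-fold higher (adjusted p = 8.85e-08). Myomaker, listed as Tmem8c, the other fusogen of myoblasts, stood at 28.9 and 30.8 against 4.45 and 3.47 CPM, 7.54-fold higher (adjusted p = 9.28e-08). Tmem182, Dysf (a membrane repair protein) and the muscle cadherin Cdh15 rose by 5.95-fold, 2.78-fold and 2.48-fold. The fusogens and Tmem182 were higher in each DM3 library than in either DM2 library.

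**Figure D4:**
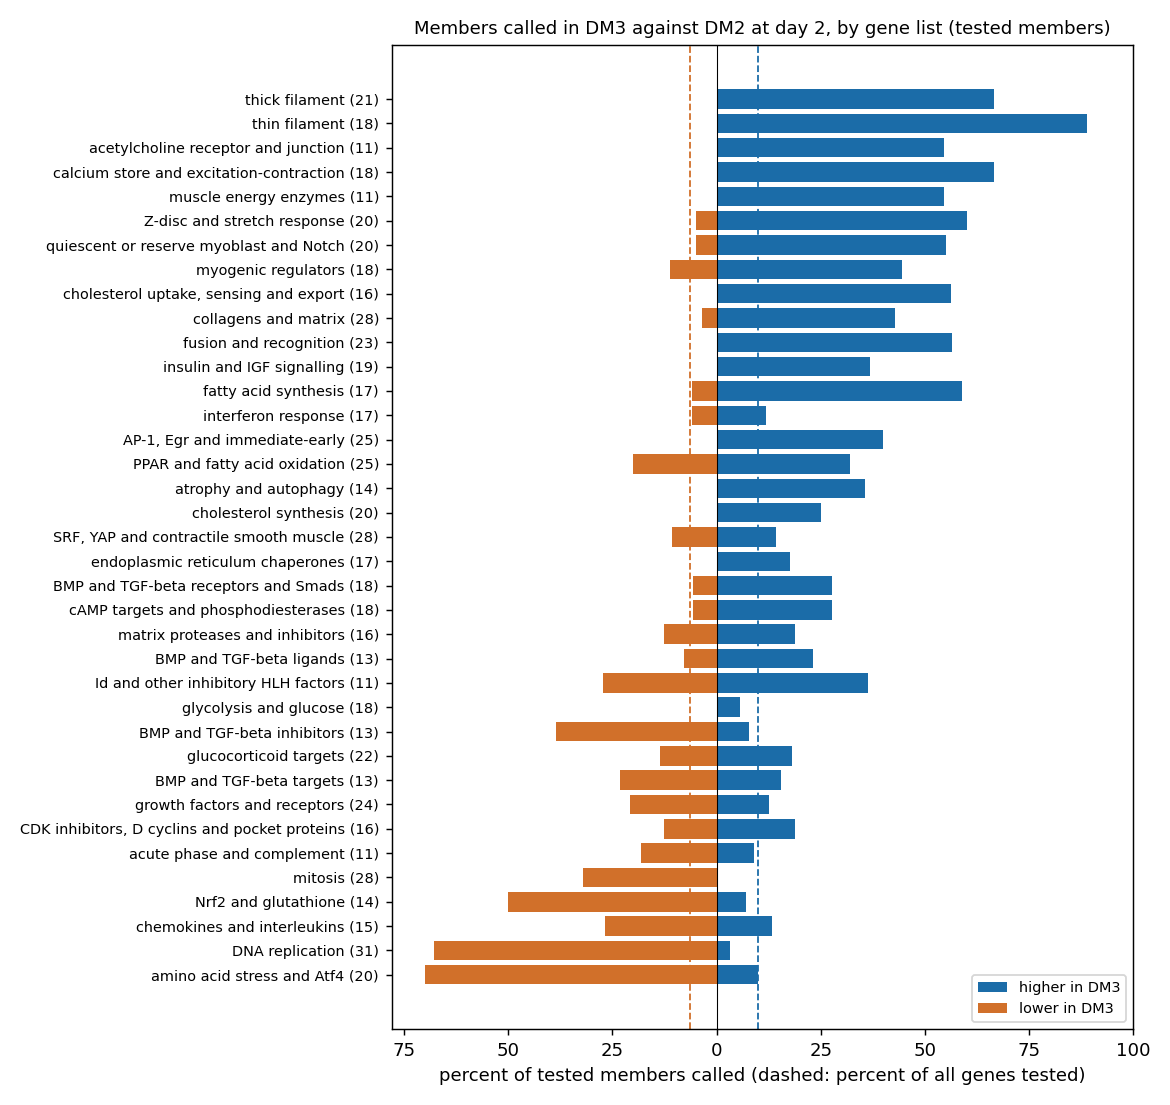
Percent of tested members called higher (blue, to the right) or lower (orange, to the left) in DM3 than in DM2 at day 2, for 37 gene lists with the number of tested members in brackets; dashed lines mark the percent over all genes tested, 9.98 higher and 6.31 lower. Muscle lists stand at the top with 54.5 to 88.9 percent of members higher from thick filament to muscle energy enzymes, and amino acid stress and DNA replication at the bottom with 70 and 67.7 percent lower.

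Notch pathway and reserve-cell genes were higher in 11 of 20 tested and lower in 1, Sdc4 (8 and 0 leaving out DM3 replicate 2). Notch signalling between neighbouring cells keeps some myoblasts from differentiating. The ligand Dll1 stood at 26.8 and 30.6 CPM in DM3 and at 5.25 and 5.42 CPM in DM2, 5.38-fold higher (adjusted p = 1.31e-07). The receptor Notch1 was 2.32-fold higher (114 and 142 against 48.1 and 62 CPM, adjusted p = 8.35e-05), and the targets Hes1 and Heyl rose as given above. Pax7, the satellite cell factor, stood at 0.501 CPM or less in all 4 libraries and was not called (adjusted p = 0.207).

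DNA replication genes were lower in DM3. Of 31 tested replication genes 21 were lower and 1 higher (17 and 1 leaving out DM3 replicate 2, 13 and 1 without DM2 replicate 1). Rrm2, the subunit of ribonucleotide reductase made in S phase, stood at 203 and 184 CPM in DM3 and at 521 and 518 CPM in DM2, 2.69-fold lower (adjusted p = 6.61e-06). Cdc6, which loads the replicative helicase, was 2.2-fold lower and Mcm3, a subunit of that helicase, 1.99-fold lower. Both were already low in DM2, with means of 5.34 and 25.2 CPM against 45.8 and 171 CPM at day 0. In DM1 at day 2, with 2% HS and no cocktail, their means were 25.6 and 109 CPM, above those of both DM3 and DM2. The mean of Rrm2 was 520 CPM in DM2, 499 CPM at day 0 and 211 CPM in DM1 at day 2. The member that rose was E2f2, a cell cycle transcription factor: it stood at 21.4 and 25.9 against 3.45 and 3.02 CPM, 7.31-fold higher (adjusted p = 5.27e-07), and at 28.4 and 23.6 CPM at day 0. Of 28 mitosis genes 9 were lower and 0 higher, a median log2 fold change of -0.276. This count rests on single libraries and on the scaling: it was 1 without DM3 replicate 2, 0 without DM2 replicate 1, 20 with DESeq2 and 17 with library totals. Ccnd1, cyclin D1, was 1.85-fold lower (39.6 and 34.3 against 67.6 and 69.4 CPM, adjusted p = 7.73e-05), and the cell cycle inhibitors Cdkn1a and Rb1 were 1.56-fold and 1.81-fold higher. The mean of Ccnd1 was 392 CPM at day 0 and 316 CPM in DM1 at day 2. The list of CDK inhibitors, D cyclins and pocket proteins did not move as a block. Of 16 tested, 3 were higher, 2 lower and 11 not called. Its median log2 fold change was -0.0986, and -0.0742 leaving out DM3 replicate 2.

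Genes of amino acid supply that the stress factor Atf4 is known to drive were lower in 14 of 20 tested and higher in 2 (10 and 1 leaving out DM3 replicate 2, 8 and 1 without DM2 replicate 1). Slc7a11, the cystine importer (chr3:49892526-50443614, minus strand), stood at 2.82 and 2.43 CPM in DM3 and at 12.6 and 17.9 CPM in DM2, 5.82-fold lower (log2 fold change -2.54, SE 0.26, adjusted p = 0.000141). Asns, asparagine synthetase (chr6:7675169-7693254, minus strand), stood at 79.4 and 81.8 against 180 and 151 CPM, 2.05-fold lower (adjusted p = 9.25e-05), Mthfd2, of mitochondrial folate metabolism, was 2.17-fold lower, and the serine synthesis enzyme Psph 1.94-fold lower. Atf4 itself did not differ at the transcript level (211 and 227 against 237 and 190 CPM, adjusted p = 0.856). The 2 members that rose were the hormone Fgf21 (4.17-fold, at 2.08 CPM or less) and Sesn2 (1.26-fold, not called without DM3 replicate 2 or either DM2 library).

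Sequence of Slc7a11 and Asns is shown because their windows of 250 bases before the RefSeq start hold matches to the amino acid response element, searched as TGATGNAA on both strands and printed in capitals. For Slc7a11 the whole window is given, chr3:50443614-50443863 of GRCm38.p6, minus strand. For Asns the 30 bases around the match are given, chr6:7693214-7693243, minus strand. Gencode starts Asns earlier than RefSeq, and the last 45 bases of the Asns window, the match included, lie in its 5′ untranslated region by that annotation.
Slc7a11: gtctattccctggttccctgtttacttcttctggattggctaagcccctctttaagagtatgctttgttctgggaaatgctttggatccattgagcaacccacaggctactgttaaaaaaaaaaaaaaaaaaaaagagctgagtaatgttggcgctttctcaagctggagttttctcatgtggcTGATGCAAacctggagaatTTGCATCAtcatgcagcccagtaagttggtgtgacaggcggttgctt
Asns: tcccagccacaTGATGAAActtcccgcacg
Counted from the RefSeq start, in Slc7a11 the matches begin at -66 (TGATGCAA) and, on the other strand, at -47 (TTGCATCA), and in Asns at -23 (TGATGAAA). Such a match was present in 5 of 18 windows of this gene list (27.8%), in 3.53% of all 27025 windows and in 4.88% of the windows of genes at least 2-fold lower.

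Glutathione and Nrf2 target genes, which protect against oxidants and share Slc7a11 with the amino acid list, were lower in 7 of 14 and higher in 1 (6 and 0 leaving out DM3 replicate 2). Gclc, the rate-limiting enzyme of glutathione synthesis, stood at 127 and 116 CPM against 248 and 279 CPM, 2.17-fold lower (adjusted p = 5.73e-05). Gsta1, a glutathione transferase with near-identical relatives among which reads may be divided, stood at 13.9 and 10.2 against 59.9 and 51.1 CPM, 4.61-fold lower (adjusted p = 0.000418), and Gsta4 was 1.88-fold lower. The riser was Nfe2l2, which encodes Nrf2 (1.27-fold, not called without DM3 replicate 2 or DM2 replicate 1).

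Some genes of lipid synthesis were higher in DM3. Of 17 tested genes of fatty acid synthesis 10 were higher and 1 lower (6 and 0 leaving out DM3 replicate 2, 6 and 0 without DM2 replicate 1). The desaturase Scd2 stood at 3722 and 3873 CPM in DM3 and at 2078 and 2295 CPM in DM2, 1.74-fold higher (adjusted p = 2.75e-05). Fatty acid synthase, Fasn, was 1.82-fold higher (577 and 717 against 317 and 393 CPM, adjusted p = 0.000982), Acaca 1.63-fold, and Srebf1, the transcription factor of these genes, 1.6-fold. The member that was lower was Dgat1 (1.31-fold), not called without DM3 replicate 2 or DM2 replicate 1. Cholesterol synthesis genes were higher in 5 of 20 and lower in 0 (3 and 0 leaving out DM3 replicate 2), among them Nsdhl (1.78-fold) and Fdft1 (1.61-fold), and genes of cholesterol uptake, sensing and export were higher in 9 of 16 and lower in 0 (5 without DM3 replicate 2, 3 without DM2 replicate 1). Each called gene named from both synthesis lists differed by less than 2-fold. In the third list Abca1, the cholesterol exporter, was 2.4-fold higher (12.3 and 14.1 against 4.37 and 6.64 CPM, adjusted p = 0.00789), and was not called without DM3 replicate 2 (adjusted p = 0.0592) or DM2 replicate 1 (adjusted p = 0.0701).

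PPAR and fatty acid oxidation genes, targets of rosiglitazone's receptor among them, were mixed: 8 of 25 were higher and 5 lower (8 and 2 leaving out DM3 replicate 2, 5 and 2 without DM2 replicate 1). Angptl4 was 2.26-fold higher (25.5 and 33.7 CPM against 13.1 and 13.1) and the coactivator Ppargc1a 2.24-fold higher, while Acot2 was 2.15-fold lower. The receptor gene Pparg itself stood at 18.4 and 15 against 23.5 and 23.7 CPM (adjusted p = 0.0201) and was called in 1 of the 4 fits with a library left out. Markers of mature fat cells were at the floor: Adipoq, Lep, Cfd, Cidea, Ucp1 and Aqp7 were at 0 in all 4 libraries, and Plin1 at 0.044 CPM or less. Of the 7 of 16 adipocyte markers that could be tested, Lipe was higher (1.81-fold), and Fabp4 and Plin4 were lower (1 and 0 leaving out DM3 replicate 2). Fabp4, the fatty acid carrier, stood at 1.67 and 1.5 against 4.69 and 3.93 CPM (2.71-fold, adjusted p = 0.0109, lost without DM3 replicate 2, adjusted p = 0.0669, and without DM2 replicate 1, adjusted p = 0.0794). Plin4, a lipid droplet coat protein, stood at 22.6 and 25.3 against 39 and 45.2 CPM (1.76-fold, adjusted p = 0.0303) and was called in none of the 4 fits with a library left out. Of 9 tested C/EBP and early adipogenic factors 4 were lower and 0 higher. Their median log2 fold change was -0.422, and -0.366 leaving out DM3 replicate 2. The lower ones were Ebf1 (1.68-fold), Gata3 (1.47-fold), Cebpg (1.35-fold) and Nr2f2 (1.34-fold). Without DM3 replicate 2 the folds of Gata3, Cebpg and Nr2f2 were 1.29, 1.28 and 1.29, and these genes were not called in every fit with a library left out. The list does not say whether a member favours or restrains fat-cell formation. Cebpa, Cebpb and Cebpd overlapped between the groups.

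Since Id genes are textbook targets of BMP signals, the parts of that pathway were read by role. Whether BMP or TGF-beta signals differed was not tested. Over all genes tested, 9.98% were higher and 6.31% lower. The shares were 23.1% and 7.69% for ligands and 27.8% and 5.56% for receptors and Smads. They were 7.69% and 38.5% for inhibitors and 15.4% and 23.1% for targets. The targets had a median log2 fold change of -0.0712, against -0.0243 over all genes tested. Of 13 tested ligands 3 (Gdf6, Gdf11 and Inhbb) were higher and 1 lower (2 and 1 leaving out DM3 replicate 2). The lower ligand was Inhba, the activin A subunit, at 6.25 and 6.69 CPM against 17.5 and 14.7 (2.49-fold, adjusted p = 5.69e-05). Bmp4 stood at 0.44 and 0.609 against 1.2 and 1.18 CPM and was not called (adjusted p = 0.0702). Receptors and Smads were higher in 5 of 18 and lower in 1 (1 and 1), the lower being the receptor-regulated Smad9 (1.45 and 1.93 against 4.57 and 5.73 CPM, 3.03-fold, adjusted p = 0.00148). Inhibitors were lower in 5 of 13 and higher in 1, the antagonist Chrd (5 and 2). The secreted BMP antagonist Grem1 stood at 8.24 and 5.76 against 23.4 and 23.8 CPM (3.38-fold lower, adjusted p = 0.00016). The inhibitory Smads, which BMP and TGF-beta signals themselves induce, were lower too: Smad7 was 1.93-fold lower, and Smad6 2.22-fold, with an adjusted p of 0.0646 without DM2 replicate 1. Targets were higher in 2 of 13 and lower in 3 (1 and 1), and the widest difference among them was that of Atoh8, a bHLH gene induced by BMP, at 12 and 13 against 37.1 and 32.4 CPM (2.78-fold lower, adjusted p = 0.00107).

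Known targets of the cocktail's other parts were also read, although the cocktail was the same in both media. Over all genes tested, 9.98% were higher and 6.31% lower. The shares were 18.2% and 13.6% for the glucocorticoid list, 27.8% and 5.56% for the cAMP list, and 36.8% and 0% for the insulin list. The median log2 fold change was -0.0629 in the glucocorticoid list and 0.0975 in the cAMP list. Glucocorticoid target genes were higher in 4 of 22 and lower in 3 (2 and 2 leaving out DM3 replicate 2, 4 and 6 with DESeq2). Tsc22d3, a glucocorticoid-induced leucine zipper protein, stood at 377 and 353 CPM in DM3 and at 595 and 560 CPM in DM2 (1.58-fold lower, adjusted p = 0.000664), against 38.1 and 33.4 CPM at day 0 and 52.4 and 49.9 CPM in DM1, which lack dexamethasone. Nfkbia was 1.83-fold lower and Fbxo32, an atrophy ligase, 1.75-fold higher. Fkbp5, a standard glucocorticoid target, stood at 249 and 271 against 272 and 271 CPM and was not called (adjusted p = 0.592). Of 18 cAMP targets and phosphodiesterases 5 were higher and 1, the growth factor Areg, lower (2 and 0), with the nuclear receptor Nr4a1 2.92-fold higher and the kinase Sik1 1.57-fold. Insulin and IGF signalling genes were higher in 7 of 19 and lower in 0 (3 and 0 leaving out DM3 replicate 2, 3 and 0 without DM2 replicate 1), with Igf2, an autocrine growth factor of differentiating myoblasts, at 11.1 and 11 against 5.49 and 5.19 CPM (2.06-fold, adjusted p = 3.58e-05) and the binding protein Igfbp4 2.42-fold higher.

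Of 25 immediate-early genes, which serum induces within minutes in resting cells, 10 were higher in the low-serum medium, 0 were lower and 15 were not called (5 higher and 0 lower leaving out DM3 replicate 2). Egr1 stood at 205 and 221 CPM in DM3 and at 33.5 and 39.4 CPM in DM2, 5.84-fold higher (log2 fold change 2.55, SE 0.211, adjusted p = 3.44e-05), with 142 and 134 CPM at day 0 and 494 and 480 CPM in DM1. Fos was 4.72-fold higher (4.8 and 7.2 against 1.2 and 1.34 CPM) and the phosphatase Dusp1 2.39-fold. The order was the same for Egr1 and Fos: DM1 highest, then DM3, then DM2, with no overlap of libraries. Dusp1 differed in that its DM3 libraries, at 158 and 177 CPM, stood above DM1, at 152 and 146 CPM, with DM2 lowest at 73.1 and 67.5 CPM.

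Matrix genes were higher in 12 of 28 and lower in 1, the proteoglycan Bgn (6 and 1 leaving out DM3 replicate 2, 6 and 1 without DM2 replicate 1). Thrombospondin 1, Thbs1, stood at 1021 and 1062 CPM against 195 and 234 CPM, 4.86-fold higher (adjusted p = 2e-07), Col5a3 was 3.44-fold higher and the crosslinking enzyme Loxl2 2.09-fold. The proteases Adamts5 and Plau rose by 3.72-fold and 2.34-fold. Of the cytokine list, 13.3% were higher and 26.7% lower, against 9.98% and 6.31% over all genes tested. Among cytokines, 2 of 15 were higher and 4 lower, with or without DM3 replicate 2: Il6, a myokine, stood at 15 and 12.1 against 2.8 and 2.86 CPM (4.78-fold higher, adjusted p = 0.000252), while Il33 was 2.47-fold lower and Csf1 2.03-fold lower. Ceruloplasmin, Cp, a copper-binding ferroxidase, stood at 42.8 and 43.7 against 5.93 and 6.91 CPM, 6.73-fold higher (adjusted p = 4.48e-08).

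Outside these lists, the widest rises among genes of at least 10 CPM in the higher group included C1qtnf3, a secreted C1q-related protein (24.7 and 24 CPM against 1.36 and 1.34, 18-fold), Hmcn1, a matrix protein (13.9-fold), and Klhl41, a sarcomere-stabilising Kelch protein (60.9 and 59.8 against 5.21 and 4.24 CPM, 12.8-fold, adjusted p = 2.06e-08). The widest falls included Prl2c2, a proliferin induced in growing cells (4.14 and 4.26 against 30.5 and 27.6 CPM, 6.91-fold, adjusted p = 2.28e-05), whose near-identical relatives may share its reads. Sprr1a stood at 2.69 and 1.58 against 19.4 and 19.4 CPM (9.21-fold, adjusted p = 0.00465, and 0.0674 without DM3 replicate 2). Ephx2, an epoxide hydrolase, was 4.98-fold lower and Arl4d, a small GTPase, 4.95-fold lower. Rpl27-ps3, a pseudogene by its symbol but classed as protein coding in the annotation used, was listed as 18.1-fold lower (0.396 and 1.61 against 24.2 and 13.3 CPM, adjusted p = 0.0219) but was called in 1 of the 4 fits with a library left out.

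The labelled cell type was checked against marker lists. Of 12 myotube markers 11 were higher and 0 lower, with or without DM3 replicate 2, and their summed level was 877 and 1020 CPM in DM3 against 103 and 87.3 CPM in DM2. Of 8 myoblast markers 3 were higher and 2 lower, with or without DM3 replicate 2, with sums of 3880 and 4450 against 2770 and 2640 CPM. The higher ones were Itga7 (1811 and 2109 against 948 and 965 CPM), Cdh15 (503 and 591 against 218 and 223 CPM) and Chrna1 (279 and 291 against 148 and 155 CPM). The lower ones were Myod1 and Myf5, whose calls were lost without DM2 replicate 1, as given above. Markers of other cell types were low: 8 macrophage markers summed to 5.98 to 8.66 CPM over the 4 libraries, with Ptprc and Adgre1 at 0, and 7 endothelial markers to 1.2 to 3.26 CPM. The 7 epithelial markers summed to 0.115 to 0.396 CPM, the 8 neural markers to 33.7 to 35.9 CPM, and the 10 osteochondral markers to 52.7 to 62.2 CPM, nearly all of it Sox9. Among their members, 3 were called. Endothelial Tek was higher in DM3 (0.925 and 0.609 against 0.16 and 0.0382 CPM, adjusted p = 0.0109), also without DM3 replicate 2 but not without DM2 replicate 2 (adjusted p = 0.0637). Neural Tubb3 was higher (8.41 and 10.3 against 5.61 and 4.08 CPM, adjusted p = 0.047), and osteochondral Alpl was lower (0 in both DM3 libraries against 0.2 and 0.305 CPM, adjusted p = 0.0399). Neither Tubb3 nor Alpl was called in any fit with a library left out.

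**Figure D5:**
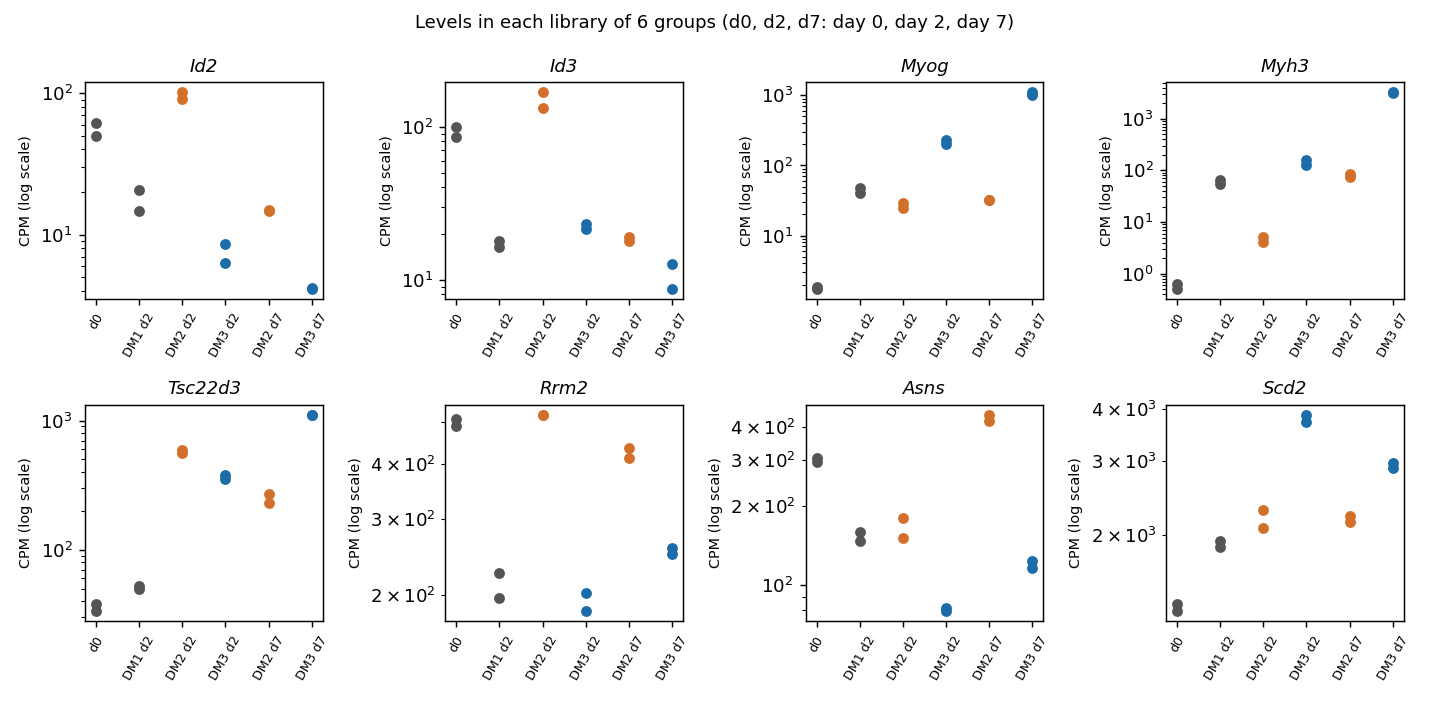
Level in CPM (log scale) of 8 genes in both libraries of day 0, DM1, DM2 and DM3 at day 2, and DM2 and DM3 at day 7; orange marks DM2, blue DM3 and grey the groups without cocktail. Id2 and Id3 peak in DM2 at day 2, Myog and Myh3 are highest in DM3 at day 7, and Tsc22d3 is higher in DM2 at day 2 but higher in DM3 at day 7.

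The same pair of media differed in 8420 genes (52.7%) at day 7, and the difference itself changed between the days in 6362 genes (39.8%). For the Id genes the gap narrowed: the log2 fold change of Id2 went from -3.69 at day 2 to -1.83 at day 7 (change 1.86, adjusted p = 0.0012), that of Id3 from -2.75 to -0.78 (adjusted p = 0.000969) and that of Id1 from -2.16 to -0.83 (adjusted p = 0.00767), and the day 7 levels in DM2 were 14.9 and 14.7 CPM for Id2 and 17.8 and 18.9 CPM for Id3. For Myog it widened from 3.01 to 5.04 (adjusted p = 7.72e-06). For Myh3 it went from 4.91 to 5.31, a change of 0.4 that was not called (adjusted p = 0.245), and its day 7 levels were 3128 and 3273 CPM in DM3 and 86.6 and 74.6 CPM in DM2. Myod1 turned from lower to higher in DM3 (-0.72 to 1.91, adjusted p = 7.89e-06), as did Myf5 (-0.48 to 0.66, adjusted p = 4.12e-05). Egr1 was 2.55 higher on the log2 scale at day 2 and -0.18 at day 7 (change called, adjusted p = 4.5e-05). Of the lists, replication genes were lower in 29 of 31 and mitosis genes in 27 of 28 at day 7, and the difference moved downward between the days in 25 and 24 of them. All 17 endoplasmic reticulum chaperones were lower in DM3 at day 7, against 3 higher and 0 lower at day 2 (1 and 0 leaving out DM3 replicate 2, 0 and 0 without DM2 replicate 1), and the change between the days was called in all 17.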

How the data were processed

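RNA of the C2C12 line was measured by poly(A) RNA sequencing with 50-base single-end reads from strand-specific libraries (11 PCR cycles). Per the submitters' processing notes, STAR 2.5.1b and RSEM 1.2.31 were used with the genome build GRCm38.p5. The authors deposited expected counts per gene, not normalized. These can be fractional, since RSEM shares out reads that match more than 1 gene. Whether counting used the strand is not given in the sources used here.

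From these values, rounded to whole numbers, 15973 genes passed filterByExpr by group, libraries were scaled by TMM, and all 14 libraries were fitted in a single model of 7 groups (7 residual degrees of freedom) with edgeR 4.0.16 (limma 3.58.1, R 4.3.3), robust quasi-likelihood F test, Benjamini-Hochberg adjustment, calls at an adjusted p under 0.05. The SE of a log2 fold change is its size divided by the square root of F. Fitting all groups gives a shared estimate of spread, since 2 libraries per group give few degrees of freedom: an exact permutation test of 2 against 2 cannot go below p = 0.333. The floor of 3 counts was 0.107 to 0.132 CPM in the 4 libraries compared and covers counting error only. Tested on simulated data for this comparison (15351 genes), the procedure recovered 14% of genes changed 1.5-fold, 86% of those changed 2-fold and 100% of those changed 4-fold or 8-fold, and 5.66% of its calls were false. The simulation changed only 200 genes, whereas 16.3% were called in the real data. Its spread followed the trend over all genes, and no library in it stood apart as DM3 replicate 2 does. These shares therefore describe the simulated setting and need not carry over to the real data.

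The comparison, the 47 gene lists (805 symbols, all found) and the tests were chosen with earlier results of these data known, so counts over a list are descriptions. Named genes were the Id, E protein, myogenic regulator and Myh families, the 10 widest rises and falls of at least 10 CPM in the higher group, up to 4 called members of each list of at least 2 CPM, and the 6 widest day-dependent differences each way. Symbols of Gm and a number were left out when the widest rises, falls and day-dependent differences were ranked. A few others (lone members against their list's direction, genes not called, Rps2) were named after their values were seen, and some genes that the rule names are not reported here. Gene positions are from Gencode vM21 (15930 of the tested identifiers matched), and promoter windows from RefSeq, GRCm38.p6. Replicate numbers were not used as pairs: the replicate differences of DM3 and DM2 correlated at 0.0846, and the labels give no shared day or culture. Alternatives were DESeq2 1.42.0, other scalings and filters, fewer libraries, a replicate block, and each library left out.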

Additional observations from a re-analysis of the deposited data

Results flagged for a closer look

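The difference between DM3 and DM2 changed between day 2 and day 7 in 6362 genes, by the test of the difference itself (edgeR's quasi-likelihood test). Values below are the log2 difference at day 7 minus that at day 2.

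The Id genes, lower in DM3 on both days, moved toward 0: by 1.33 for Id1, 1.86 for Id2 and 1.96 for Id3. The myogenic factors moved toward DM3, by 2.02 for Myog, 2.63 for Myod1, 1.14 for Myf5 and 3.05 for Myf6, while the E protein gene Tcf12 moved by -0.559, from 1.5-fold higher to no call.

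The widest shift upward among the genes ranked was that of Txnip, an inhibitor of thioredoxin and glucose uptake, at 8.85 (adjusted p = 2.53e-09): it stood at 478 and 365 CPM in DM3 and 517 and 578 CPM in DM2 at day 2, and at 464 and 466 against 1.2 and 1.4 CPM at day 7. Il2rb moved by 5.37 and Unc13d by 4.7. Atcayos moved by 4.99; it is an antisense transcript, and its reads cannot be told apart from those of its partner gene unless counting used the strand. Mybpc2, fast myosin-binding protein C, moved by 5.46, but had 5 counts in DM3 and 2 in DM2 at day 2, so this fitted value depends on the prior count and gives no size.

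Toward DM2 moved F5, coagulation factor V (-7.53), the collagenase Mmp13 (-7.08), the secreted glycoprotein Stc1 (-7) and the exchanger Slc24a3 (-6.95). Stc1 stood at 0.394 to 0.649 CPM in the 4 day 2 libraries, and at day 7 at 27.7 and 24.3 CPM in DM2 against 0.169 and 0.205 CPM in DM3. Gpr141 (-8.05) and Pdcd1 (-8.01) had 2 to 4 counts per group at day 2, and their fitted values give no size either. In DM3 at day 7, F5 (0.0845 and 0.164 CPM), Mmp13 (0.507 and 0 CPM) and Slc24a3 (0.0845 and 0.329 CPM) each had a library under the floor of 3 counts (0.127 and 0.123 CPM), so the sizes of their shifts rest on a few counts and are no measure of size.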

How the results depend on the processing

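At 2602 called genes, 1594 higher and 1008 lower, the day 2 comparison gave 2479 to 3169 calls with DESeq2, other scalings, other filters, counts rounded down, pseudogene rows left out or a non-robust fit. Fewer libraries moved it by more: fitting only the 4 day 2 libraries gave 494 calls (353 higher, 141 lower), and leaving out the 3 libraries with a low pseudogene share, chosen after seeing the data, gave 948 (636 higher, 312 lower). Leaving out 1 of the 4 libraries gave 1124 to 4130 calls, 733 to 1860 higher and 391 to 2270 lower. Of the calls, 1131 of 1188 without DM3 replicate 2 and 1092 of 1124 without DM2 replicate 1 were among the 2602, in the same direction. The day 7 comparison kept 7095 to 8957 calls and the change between days 5079 to 7336. With the replicate block the day 2 count was 2561 (99 with the 4 libraries alone), and the replicate differences of DM3 and DM2 correlated at 0.0846, so the numbers were not treated as pairs. Some named genes that were not called changed sign without DM3 replicate 2. The log2 fold change went from -0.893 to 0.161 for Gpr141 and from -0.0756 to 0.225 for Stc1. Of the 174 named genes, none called at day 2 in both the main fit and an alternative run changed direction. Among 171 of them that could be fitted with only the 4 libraries, 58 were no longer called, leaving out DM2 replicate 1 ended 40 and DM3 replicate 2 ended 36. The cause of these losses was not tested. With 2 libraries per group, changes under 2-fold may be missed. In the simulation 14% of 1.5-fold changes were recovered, a share that need not carry over to the real data.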

Other observations

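Genes of the cytoskeleton and of mixed muscle lineages that serum response factor and YAP are known to drive did not move as a block at day 2: of 28 tested, 4 were higher and 3 lower in DM3 (2 and 2 leaving out DM3 replicate 2). Tagln, a smooth muscle actin-binding protein, stood at 2.99 and 3.01 CPM against 6.41 and 4.16 CPM (edgeR, adjusted p = 0.0265, called without DM2 replicate 2 alone among the fits with a library left out). Glycolysis genes were higher in 1 of 18 and lower in 0 at day 2, with or without DM3 replicate 2, and at day 7 in 3 and 14. Interferon response genes were higher in 2 of 17 and lower in 1 (2 and 0 leaving out DM3 replicate 2). Their shares, 11.8% higher and 5.88% lower, lay near those over all genes tested at day 2, 9.98% and 6.31%. At day 7, 52.7% of all genes tested were called in either direction. Among 14 atrophy and autophagy genes 5 were higher and 0 lower (2 and 0 leaving out DM3 replicate 2), with Fbxo32 at 1.75-fold and Map1lc3a at 1.84-fold.

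By gene class, 1575 of 13065 protein-coding genes tested were higher and 895 lower. Of 1358 processed pseudogenes 1 was higher and 28 lower, with a median log2 fold change of -1.03, and without DM3 replicate 2, the library with the low pseudogene share, 0 were higher and 2 lower. Of 367 lincRNA genes 4 were higher and 28 lower, and 2 and 7 without that library.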
